A study of Mus musculus with 23 samples.

Results

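P2ry13, P2ry12, P2ry14, P2ry1, Gpr171 and Med12l form a group of genes on mouse chromosome 3, most of them encoding G protein-coupled receptors of the P2Y type, and P2ry13 is the gene that was knocked out here. The members were chosen by name: every probe set with exactly 1 gene symbol, that symbol being one of the 6. This gave 5 probe sets of the 38385 on the array, 1 each for P2ry13, P2ry12, P2ry14, P2ry1 and Gpr171. No probe set carries the name Med12l, so Med12l was not analysed here. Total RNA from mouse liver was measured on 23 arrays, with 6 livers of females carrying the GPR86 KO genotype (GPR86 is the older name of P2RY13), 6 livers of WT females, 6 livers of KO males and 5 livers of WT males. The design text gives 1 mouse per liver. The sources used here give no strain, no age, no deleted part of the gene and no cell type in which it was lost.

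P2Y receptors sense extracellular nucleotides that cells release or spill when they are stressed or damaged. P2Y13, P2Y12 and P2Y1 respond to ADP, the first of these through Gi in the same way as P2Y12, while P2Y1 couples to Gq and raises calcium. P2Y14 responds to UDP and UDP-sugars such as UDP-glucose. P2Y12 and P2Y1 are best known from platelet activation, P2Y12 also from microglia, and hepatic P2Y13 has been linked to the uptake of HDL by hepatocytes. GPR171 is a related receptor that T cells express, and MED12L is a paralogue of the Mediator subunit MED12. In the RefSeq gene table (GRCm38.p6) the receptor genes Gpr171, P2ry14, P2ry13 and P2ry12 all lie within the span of Med12l, and P2ry1 lies farther along the same chromosome, beyond Aadac, Sucnr1 and Mbnl1.

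The stretches before the annotated starts of the 4 nucleotide receptor genes are shown because these genes share a chromosome region and differed in whether their RNA passed a test of the knockout or of sex. Each is the 250 bases before the start, credited to RefSeq, build GRCm38.p6, written 5′ to 3′ on the strand of the gene. Capitals mark GAGGAA or its reverse complement TTCCTC, a form of the site bound by PU.1, a transcription factor of myeloid cells. Shorter or other forms of the site were not searched, so a stretch without capitals may still hold them. P2ry13 is at chr3:59210883-59211132 on the minus strand, P2ry12 at chr3:59262986-59263235 on the minus strand, P2ry14 at chr3:59153493-59153742 on the minus strand and P2ry1 at chr3:61002535-61002784 on the plus strand. P2ry14 has 4 annotated starts, of which the most upstream is shown.
P2ry13: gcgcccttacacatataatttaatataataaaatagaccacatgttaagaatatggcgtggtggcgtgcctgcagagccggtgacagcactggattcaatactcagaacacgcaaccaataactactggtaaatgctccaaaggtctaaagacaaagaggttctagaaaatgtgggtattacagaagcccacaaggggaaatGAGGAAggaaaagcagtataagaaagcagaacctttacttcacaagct
P2ry12: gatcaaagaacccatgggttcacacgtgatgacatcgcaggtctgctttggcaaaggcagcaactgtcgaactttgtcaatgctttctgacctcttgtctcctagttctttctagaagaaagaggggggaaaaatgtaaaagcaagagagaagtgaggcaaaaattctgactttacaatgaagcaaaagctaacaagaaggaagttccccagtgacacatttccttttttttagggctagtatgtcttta
P2ry14: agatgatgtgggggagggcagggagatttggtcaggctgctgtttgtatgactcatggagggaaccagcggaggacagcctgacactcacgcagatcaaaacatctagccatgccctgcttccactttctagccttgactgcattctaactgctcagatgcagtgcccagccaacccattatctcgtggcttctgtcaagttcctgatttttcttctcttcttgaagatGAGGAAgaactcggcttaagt
P2ry1: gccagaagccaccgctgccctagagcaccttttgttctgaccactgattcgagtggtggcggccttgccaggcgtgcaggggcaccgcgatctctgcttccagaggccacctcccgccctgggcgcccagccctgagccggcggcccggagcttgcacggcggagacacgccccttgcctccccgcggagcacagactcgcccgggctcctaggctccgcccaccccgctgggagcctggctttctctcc

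GAGGAA, the only motif searched and looked for on both strands, stood once in the P2ry13 stretch, beginning at position -48 from the start, and once in the P2ry14 stretch, at position -21. The stretches before the other 3 starts of P2ry14 each held TTCCTC once, but 2 of these stretches overlap and share the same match. It was not among the letters of the P2ry12 and P2ry1 stretches. Of 32851 RefSeq promoter stretches of the same length, 23.3% held it. The 4 stretches also differed in base composition. The one of P2ry1 held 20 CpG dinucleotides and was 70.8% G or C. The stretches of P2ry13, P2ry12 and P2ry14 held 5, 3 and 4 CpG and were 41.6%, 41.6% and 50% G or C, against medians of 6 CpG and 52.4% over all stretches.

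Values are the deposited intensities, converted to log2, and differences were tested with limma over all 23 arrays, with Benjamini-Hochberg adjustment over all 38385 probe sets. An adjusted p under 0.05 counts as passing. Array medians lay between 19.5 and 21.1 in linear units, and any pair of arrays correlated at 0.983 to 0.995 over all probe sets. The brightest of 3 Xist probe sets lay between 8.42 and 9.78 in female arrays and between 4.14 and 5.22 in male arrays, so the sex labels held. With the 3 probe sets averaged, the log2 sex difference averaged over genotypes was 1.89 in place of 4.35. Hepatocyte markers were present in every group: Ttr averaged 11.76 in female KO, 11.90 in female WT, 11.88 in male KO and 11.94 in male WT, while Alb, at 14.68 to 14.77, lay close to the highest intensity on any array and cannot show a difference. To show where signal without transcript can lie, 4 probe sets of Y-linked genes read 2.53 to 3.69 in the 12 female arrays, although this level differs between probe sets. In the 11 male arrays they read 3.51 to 8.91, so the ranges overlap. Each probe set binds with its own strength, so levels of different genes are not ranked below, and low readings are set beside those of the Y-linked probe sets only as a rough mark. These are bulk livers, in which fewer cells of a type and less RNA per cell cannot be told apart.

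Of the 5 receptor genes measured, P2ry13 alone passed a KO against WT comparison: it fell in KO livers of both sexes, and P2ry12, P2ry14, P2ry1 and Gpr171 did not pass in either sex. A second pattern ran along sex. P2ry1, P2ry12 and P2ry14 were higher in females once both genotypes were averaged, a comparison added after the data had been seen. In it 10.5% of all probe sets passed and 5.96% were higher. P2ry14 and P2ry12 were also higher among KO livers alone, where 4.85% of all probe sets passed. Among WT livers 0 of 5 members passed in limma, where 4.25% of all probe sets did. P2ry12 read low in all groups. Its call among KO livers was lost in 8 of 12 fits with 1 KO array left out, and the averaged calls of P2ry12 and P2ry14 also depended on single arrays, as given below.

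P2ry13, the ADP receptor gene that was targeted, read 5.21, 5.22, 5.16, 5.06, 5.09 and 5.18 (log2 intensity) in female KO replicates 1 to 6, against 6.36, 6.42, 6.09, 6.41, 6.03 and 6.32 in female WT replicates 1 to 6. In males it read 5.17, 5.34, 5.32, 5.07, 5.16 and 5.11 in KO replicates 1 to 6, against 6.34, 5.83, 5.80, 6.09 and 5.92 in WT replicates 2 to 6. All KO arrays lay below all WT arrays of either sex, and the KO arrays lay closer together than the WT arrays. On the linear scale the mean intensity was 35.6 in female KO and 77.6 in female WT, and 36.7 in male KO and 64.4 in male WT. Over all probe sets, 0.125% had every female KO array below every female WT array and 0.305% had this in males.

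The fall of P2ry13 was -1.12 on the log2 scale in females (95% interval -1.30 to -0.94, limma, adjusted p = 6.07e-09) and -0.80 in males (95% interval -0.99 to -0.61, limma, adjusted p = 2.12e-05). It ranked 3 by p among all 38385 probe sets in females and 4 in males. Of the 5 members, 1 passed in each sex, where 0.0547% of all probe sets passed in females (0.0313% as lower) and 0.0313% in males (0.0156% as lower). Averaged over the sexes, P2ry13 was again the 1 member of 5 that passed, at -0.96 (limma, adjusted p = 1.34e-10), where 0.0808% of all probe sets did. By the rule in the design text, a plain one-way analysis of variance with a change over 20%, the 1 member passing of 5 was P2ry13, where 2.42% of all probe sets passed, and 0.993% did after Benjamini-Hochberg adjustment. P2ry13 kept passing under every alternative and without any single array. The fall was 0.32 larger in females than in males (SE 0.13), and this difference between the sexes did not pass (limma, adjusted p = 0.962, unadjusted p = 0.0174). For this difference 0 of 5 members passed in limma and 2 had an unadjusted p under 0.05, P2ry13 and P2ry14, where 0.0104% and 5.14% of all probe sets did. Since the deleted part is unknown, the probe set may lie inside or outside it, and the KO signal does not measure how much transcript remained.

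The order of the 4 group means of P2ry13 was female WT at 6.27 ± 0.17 (SD, n = 6), male WT at 5.99 ± 0.22 (SD, n = 5), male KO at 5.19 ± 0.11 (SD, n = 6) and female KO at 5.15 ± 0.06 (SD, n = 6). Male KO and male WT, neighbours in this order, differed beyond their spread. Between female WT and male WT the difference was 0.28 (SE 0.09) and did not pass (limma, adjusted p = 0.0885). It passed without female WT replicate 5 or male WT replicate 2 (limma, adjusted p = 0.0412 and 0.0127). Between female KO and male KO the difference was -0.04, with a 95% interval from -0.22 to 0.14.

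**Figure D1:**
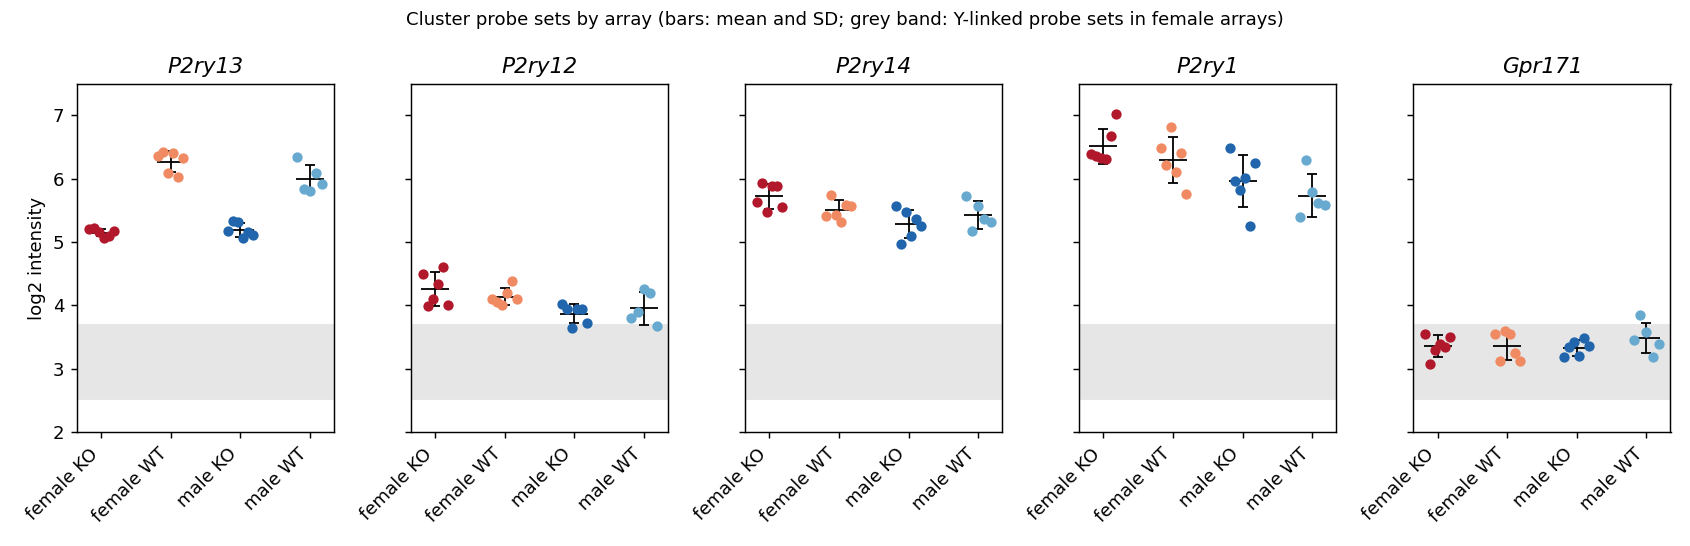
Log2 intensity (vertical axis) of the 5 measured cluster genes in each array, by group, with 1 point per liver and bars for the mean and SD; the grey band spans the Y-linked probe sets in female arrays, 2.53 to 3.69. The P2ry13 points of both KO groups sit below all WT points, the other genes' KO and WT points overlap, and Gpr171 lies mostly inside the band.

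P2ry12, the Gi-coupled ADP receptor gene next to P2ry13, read 4.5, 3.99, 4.1, 4.34, 4.61 and 4.0 (log2 intensity) in female KO, against 4.10, 4.06, 4.01, 4.19, 4.39 and 4.10 in female WT. In males it read 4.03, 3.94, 3.64, 3.95, 3.94 and 3.73 in KO, against 3.80, 3.90, 4.26, 4.2 and 3.67 in WT. KO and WT overlapped in both sexes, and all values were low, with male KO replicate 3 and male WT replicate 6 among the levels that Y-linked genes had in females. The KO minus WT difference was 0.11 in females (95% interval -0.11 to 0.34) and -0.09 in males (95% interval -0.33 to 0.15), and neither passed (limma, adjusted p = 0.922 and 0.944).

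P2ry1, the Gq-coupled ADP receptor gene, had the widest spread within groups of these 5. It read 6.39, 6.36, 6.33, 6.31, 6.67 and 7.02 (log2 intensity) in female KO, against 6.49, 6.22, 6.82, 6.11, 6.41 and 5.76 in female WT. In males it read 6.48, 5.96, 5.82, 6.01, 5.26 and 6.25 in KO, against 5.40, 6.29, 5.79, 5.61 and 5.59 in WT. The groups overlapped in each sex, with the KO means the higher ones. The differences were 0.21 in females (95% interval -0.15 to 0.58) and 0.23 in males (95% interval -0.15 to 0.61), without passing (limma, adjusted p = 0.909 and 0.894). With single arrays left out, P2ry1 differed by 0.10 (without female WT replicate 6) to 0.32 (without female WT replicate 3) in females, and by 0.13 (without male KO replicate 1) to 0.37 in males (without KO replicate 5, and likewise without WT replicate 3). Averaged over the sexes, P2ry1 differed by 0.22 (SE 0.13, limma, adjusted p = 0.759).

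P2ry14, the receptor gene for UDP-sugars, read 5.63, 5.93, 5.47, 5.88, 5.88 and 5.56 (log2 intensity) in female KO, against 5.41, 5.74, 5.42, 5.32, 5.58 and 5.57 in female WT. In males it read 5.57, 4.97, 5.47, 5.10, 5.36 and 5.26 in KO, against 5.72, 5.18, 5.57, 5.37 and 5.32 in WT. KO lay higher on average in females and lower in males, and the groups overlapped in both. The difference was 0.22 in females (SE 0.11, limma, adjusted p = 0.854) and -0.14 in males (SE 0.11, limma, adjusted p = 0.887). Taken as females minus males, these effects differed by 0.36, with a 95% interval from 0.04 to 0.68, and it did not pass over all probe sets (limma, adjusted p = 0.962, unadjusted p = 0.0277).

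Gpr171, the receptor gene of T cells in this cluster, read about as low as Y-linked genes do in females, in all groups. It ranged from 3.08 to 3.55 in female KO, against 3.12 to 3.59 in female WT, and from 3.18 to 3.48 in male KO, against 3.19 to 3.85 in male WT. Male WT replicate 3, at 3.85, was the only array above 3.69, and with a mark this rough that does not show a transcript there. A level of this receptor could not be told from background, so its differences of -0.0017 in females and -0.16 in males (limma, adjusted p = 0.999 and 0.868) have no reading in either direction.

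The 4 members other than P2ry13 had a median KO minus WT difference of 0.16 in females and -0.12 in males, where all probe sets had a median of -0.01 in females and, between their 5th and 95th percentiles, ran from -0.17 to 0.17 in females and from -0.17 to 0.19 in males. The plot of differences shows P2ry13 apart from the other members in both KO comparisons. With group means removed, the 10 pairs of members correlated at -0.42 to 0.33 over the 23 arrays, which share their normalization.

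**Figure D2:**
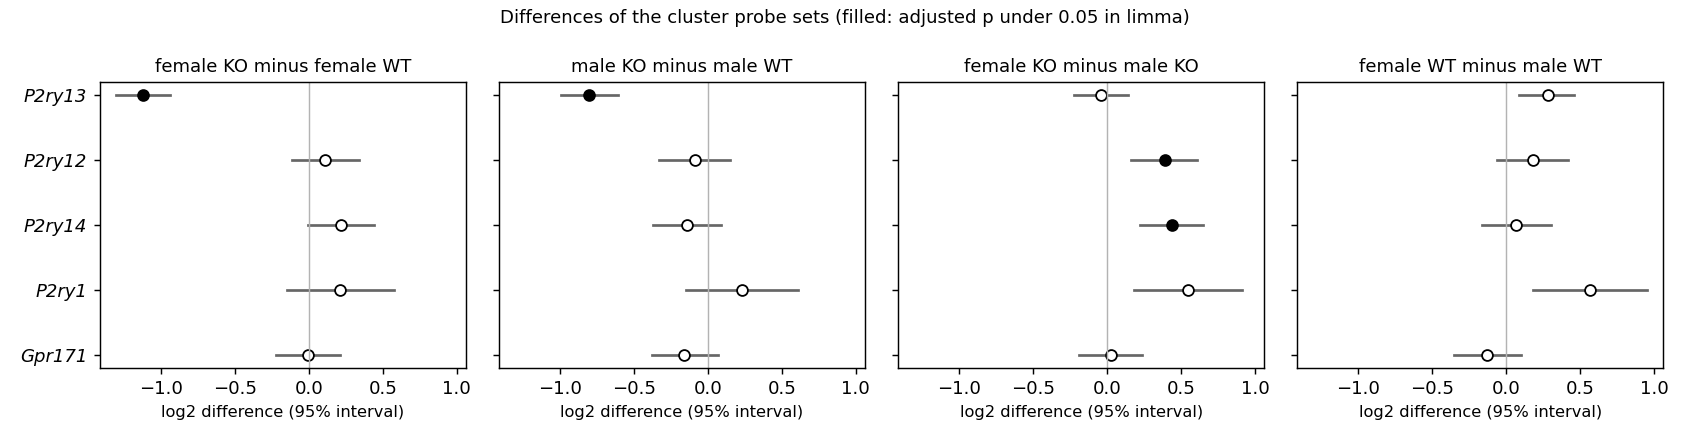
Log2 differences (horizontal axis) with 95% intervals from limma for the 5 measured cluster genes in 4 comparisons; filled points have an adjusted p under 0.05. Only P2ry13 is filled in the KO comparisons, at -1.12 and -0.80, and only P2ry12 and P2ry14 are filled between KO females and KO males, at 0.39 and 0.44.

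Markers of the cells that may carry these receptors gave no passing KO difference. Of 10 measured Kupffer cell markers, among them Clec4f, Vsig4 and Adgre1, 0 passed in limma between KO and WT in either sex, with median differences of 0.02 in females and -0.01 in males and single markers between -0.14 and 1.0 in females and between -0.11 and 0.26 in males. The highest value in each sex was that of Marco (SE 0.29 in females and 0.3 in males, limma, adjusted p = 0.599 and 0.939). The summed linear intensity of the 10 markers ranged from 6434.8 to 8357.2 in female KO, against 6213.9 to 7615.8 in female WT, and from 4385.2 to 6069.2 in male KO, against 4400.6 to 5948.9 in male WT. Of 8 measured platelet and megakaryocyte markers, 8 of T and NK cells, and 8 of sinusoidal endothelium, 0 passed as well, with medians between -0.05 and 0.03.

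The genes on each side of the cluster were described next, to see whether the fall of P2ry13 had company. Among the 10 nearest measured genes on each side of P2ry13 outside the cluster, Aadac and Sucnr1 fell in KO livers of both sexes and the other 18 did not pass. These 2 of 20 compare with 0.0547% of all probe sets in females and 0.0313% in males. Aadac, a deacetylase of the endoplasmic reticulum in hepatocytes, ranged from 11.16 to 11.45 (log2 intensity, median 11.25) in female KO, against 11.75 to 11.99 (median 11.91) in female WT. In males it ranged from 11.32 to 11.56 in KO, against 12.04 to 12.26 in WT. Its KO and WT arrays did not overlap in either sex, as in 0.229% of all probe sets in females and 0.555% in males, and it fell by 0.62 (SE 0.07) and 0.70 (SE 0.07; limma, adjusted p = 3.42e-06 and 1.81e-06).

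Sucnr1, the receptor for succinate and a relative of the P2Y receptors, ranged from 7.24 to 8.44 in female KO, against 8.36 to 9.20 in female WT, with a small overlap. In males it ranged from 8.14 to 9.07 in KO, against 9.54 to 10.20 in WT, with none. It fell by 1.05 in females (SE 0.19; adjusted p = 0.0228 in limma), and it fell by 1.30 in males (SE 0.20; adjusted p = 0.00369 in limma). The female call was lost when female KO replicate 1, 3, 4 or 6, or when female WT replicate 1, 2 or 5, was left out (limma, adjusted p up to 0.0998), with an intensity trend and robust variance at 0.137, and with only the female arrays at 0.0719.

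The 18 other neighbours differed by -0.14 to 0.12 in females and by -0.18 to 0.12 in males (limma, smallest adjusted p = 0.896 and 0.825). They include Mbnl1, a splicing regulator that lies between Sucnr1 and P2ry1, at 0.09 in females and 0.04 in males, and Igsf10, which follows P2ry12 in the gene order, at 0.05 and -0.12. Between P2ry13 and Aadac in that order stand P2ry12, Igsf10 and 4 Aadacl2-type genes, and none of these passed. The median of all 20 neighbours was -0.02 in females and -0.01 in males.

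**Figure D3:**
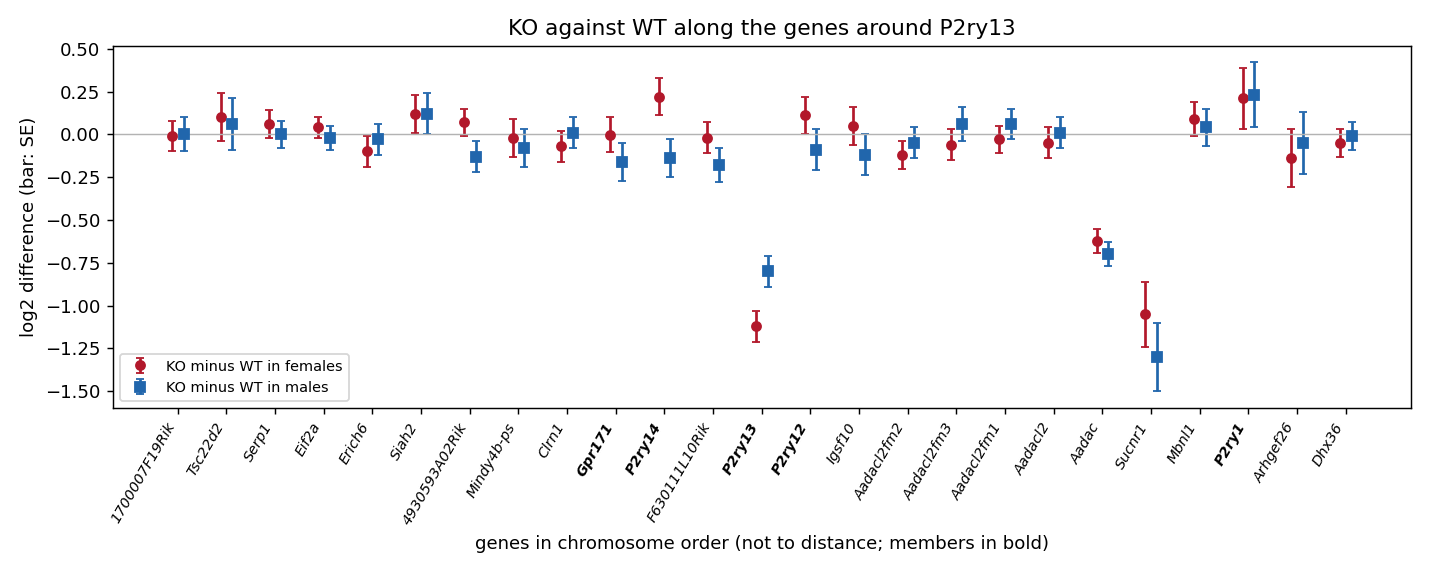
KO minus WT log2 difference with SE (vertical axis) in females and males for the 5 cluster genes (bold) and the 10 nearest measured genes on each side of P2ry13, in chromosome order and not to distance. P2ry13, Aadac and Sucnr1 lie between -1.30 and -0.62 in both sexes, and every other gene lies between -0.18 and 0.23.

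Among other nucleotide receptors and their relatives, Sucnr1 was the only one measured that passed between KO and WT. Of 19 measured members of this list, which also holds Sucnr1, 1 fell and 0 rose in each sex, and the other 18 ran from -0.19 to 0.14 in females and from -0.23 to 0.26 in males, with list medians of -0.05 and -0.03. Of all probe sets, 0.0547% passed in females and 0.0313% in males. P2ry6, a receptor for UDP on macrophages, read 5.59 ± 0.20 in female KO and 5.45 ± 0.20 in female WT, and 5.15 ± 0.16 in male KO and 4.89 ± 0.18 in male WT (SD; limma, adjusted p = 0.902 and 0.739). P2ry2 differed by -0.12 in females and -0.14 in males (limma, adjusted p = 0.899 and 0.845).

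Genes that act below or around these receptors gave no passing KO difference. Of 23 measured G proteins and effectors, 0 passed in either sex in limma, and the smallest adjusted p-values were those of Rhoa, the small GTPase, in females (0.10, adjusted p = 0.861) and Rasgrp2, an activator of Rap in platelets, in males (0.26, adjusted p = 0.794). Of 11 measured enzymes that make or clear the ligands, 0 passed. Ugdh, which uses up UDP-glucose, read 0.29 higher in female KO (limma, adjusted p = 0.71), and Nt5e, which turns AMP into adenosine, read 0.51 lower in male KO (SE 0.12, limma, adjusted p = 0.291). Of 6 measured genes of the Mediator kinase module, 0 passed. Med12, the paralogue of Med12l, differed by 0.33 in males (SE 0.12, limma, adjusted p = 0.717), and by 0.17 without male WT replicate 2.

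Females and males differed in the cluster. P2ry14 averaged 5.72 ± 0.20 in female KO and 5.29 ± 0.22 in male KO (SD, n = 6 each), and 4 of 6 female KO arrays lay above all male KO arrays. It was 0.44 higher in females among KO livers (SE 0.11, limma, adjusted p = 0.0127), and this call stood without any single array. Among WT livers P2ry14 averaged 5.51 ± 0.15 in females (n = 6) and 5.43 ± 0.22 in males (n = 5), a difference of 0.07 (95% interval -0.16 to 0.30, limma, adjusted p = 0.807). The test of whether these sex differences differ is the one given above for P2ry14, and it did not pass, so the sex difference is not shown to be particular to KO. In the order female KO, female WT, male WT, male KO, no neighbouring pair of P2ry14 means passed.

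P2ry12 followed the same order of group means. It averaged 4.26 ± 0.27 in female KO and 3.87 ± 0.15 in male KO (SD, n = 6 each), with 4 of 6 female KO arrays above all male KO arrays, and 4.14 ± 0.13 in female WT (n = 6) and 3.96 ± 0.26 in male WT (n = 5). The sex difference was 0.39 among KO livers (SE 0.11, limma, adjusted p = 0.041) and 0.18 among WT livers (SE 0.12, limma, adjusted p = 0.486). All P2ry12 values were low. The lowest in male KO (3.64) and in male WT (3.67) lay among the levels that Y-linked genes had in females. The call among KO livers was lost when female KO replicate 1, 4 or 5, or when male KO replicate 2, 3, 4, 5 or 6, was left out (limma, adjusted p up to 0.128), and with only the KO arrays in the fit at 0.0564. Of 5 members, 2 passed among KO livers, where 4.85% of all probe sets passed, and 0 of 5 among WT livers in limma, where 4.25% did. P2ry13 and P2ry1, 2 of 5, had an unadjusted p under 0.05 among WT livers, where 16.5% of all probe sets did.

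P2ry1 showed nearly equal sex differences in both genotypes. It averaged 6.51 ± 0.28 in female KO and 5.96 ± 0.41 in male KO (SD, n = 6 each), a difference of 0.55 (SE 0.18, limma, adjusted p = 0.0784). In WT livers it averaged 6.30 ± 0.36 in females (n = 6) and 5.73 ± 0.34 in males (n = 5), a difference of 0.57 (SE 0.19, limma, adjusted p = 0.0883). Neither passed by itself, and each did once certain arrays were left out: male KO replicate 1 for KO (limma, adjusted p = 0.0326), and female WT replicate 6 or male WT replicate 3 for WT (limma, adjusted p = 0.0379 and 0.029). Its 4 group means ran female KO, female WT, male KO, male WT, and the middle pair was not tested.

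The mean of the sex differences in KO and WT, a comparison added after the data had been seen, was 0.56 for P2ry1 (SE 0.13), 0.28 for P2ry12 (SE 0.08) and 0.26 for P2ry14 (SE 0.08; limma, adjusted p = 0.00406, 0.0222 and 0.0323). It was 0.12 for P2ry13 and -0.05 for Gpr171, without passing (limma, adjusted p = 0.271 and 0.757). So 3 of 5 members passed, all higher in females, where 10.5% of all probe sets passed and 5.96% were higher. The P2ry12 call ended without male WT replicate 6 (limma, adjusted p = 0.0542), and the P2ry14 call was lost (up to 0.0689) when any of 10 arrays was left out, namely replicate 2, 4 or 5 of female KO, 2 or 4 of male KO, 2 or 5 of female WT, or 3, 5 or 6 of male WT. The P2ry1 call stood without any single array.

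Cell markers moved with sex as well. Of the 10 measured Kupffer cell markers, 8 were higher in KO females than in KO males and 7 in WT females than in WT males, with medians of 0.48 and 0.47, where 3.21% and 2.54% of all probe sets were higher. Adgre1, the F4/80 antigen, was 0.70 higher among KO livers and 0.52 among WT livers (limma, adjusted p = 1.81e-06 and 0.000428). The summed linear intensity of these markers, given above, did not overlap between the sexes in either genotype. Of 8 sinusoidal endothelial markers, 1 was higher in females among KO livers (Fcgr2b; limma, adjusted p = 0.00459), with a median of 0.19. Among WT livers 2 were (Stab1 and Fcgr2b; limma, adjusted p = 0.0477 and 0.00685), with a median of 0.25. For the endothelial markers the sum ranged from 3416.1 to 3893.6 in female KO, against 2936.2 to 3211.9 in male KO, and from 3573.1 to 3985.0 in female WT, against 2889.1 to 3335.9 in male WT. For 8 platelet and megakaryocyte markers it ranged from 216.0 to 235.6 in female KO, against 220.9 to 247.1 in male KO, and from 212.5 to 239.7 in female WT, against 225.6 to 252.0 in male WT. Among KO livers 1 platelet marker, Itgb3, was higher in females at 0.48 and 1, Treml1, was lower at -0.35 (limma, adjusted p = 0.0173 and 0.00759). Of 8 T and NK cell markers, 2 were higher in females among KO livers (Cd3d and Nkg7) and 3 among WT livers (Cd3d, Cd3g and Nkg7), and of 6 stellate cell markers 2 were higher among KO livers (Dcn and Colec11) and 0 among WT livers in limma, where Colec11 had an unadjusted p of 0.0267. The T and NK cell sum ranged from 199.7 to 243.9 in female KO, against 181.9 to 213.2 in male KO, and from 207.6 to 234.3 in female WT, against 193.8 to 211.1 in male WT. The stellate cell sum ranged from 4909.8 to 6399.3 in female KO, against 4235.8 to 5174.2 in male KO, and from 4836.7 to 5609.2 in female WT, against 4503.1 to 5022.5 in male WT. No dendritic, B cell or neutrophil marker passed between the sexes in either genotype (limma, smallest adjusted p = 0.0583), and no intensity was 0 for any marker. With both genotypes averaged, 9 of 10 Kupffer cell and 5 of 8 sinusoidal endothelial markers were higher in females. So were 3 of 8 T and NK cell, 2 of 6 stellate cell, 1 of 3 B cell and 1 of 4 neutrophil markers. The B cell marker was Cd79b at 0.20 and the neutrophil marker S100a8 at 0.28 (limma, adjusted p = 0.02 and 0.0409). Of 8 platelet markers 1 was higher and 1 lower, and 0 of 5 dendritic cell markers passed. Of all probe sets, 10.5% passed and 5.96% were higher. The part of these markers in the sex differences of P2ry1, P2ry12 and P2ry14 was not tested.

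**Figure D4:**
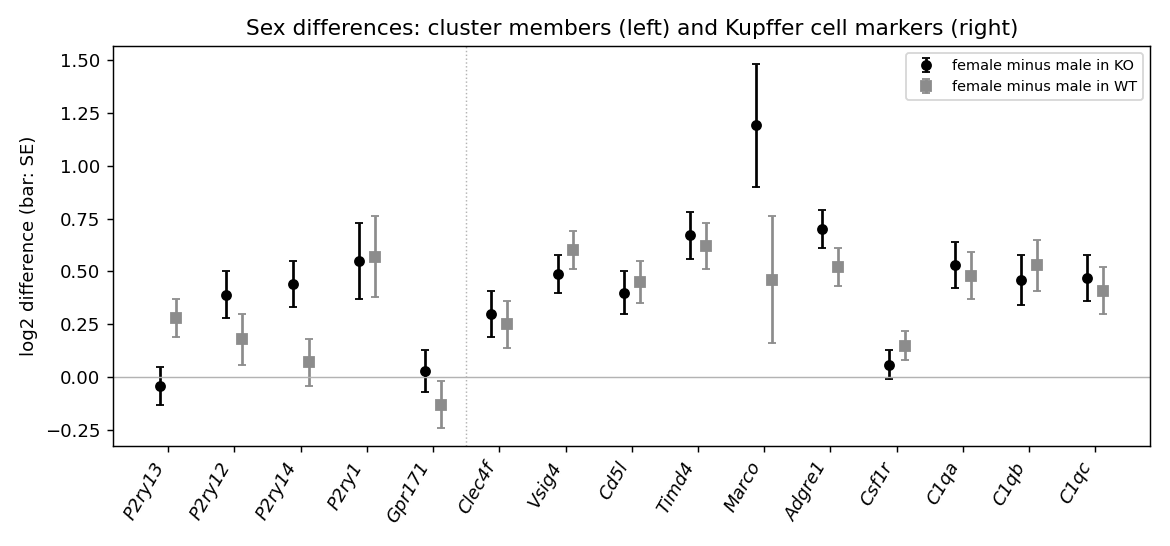
Female minus male log2 difference with SE (vertical axis) among KO and among WT livers, for the 5 cluster genes on the left and the 10 measured Kupffer cell markers on the right. P2ry1 lies at 0.55 and 0.57, P2ry12 at 0.39 and 0.18 and P2ry14 at 0.44 and 0.07, while the Kupffer cell markers all lie above 0.

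Other receptors of the family differed by sex in both directions. P2ry6 was higher in females, by 0.44 among KO livers and 0.55 among WT livers (limma, adjusted p = 0.00782 and 0.00143). F2r, the thrombin receptor, was lower in females, at -1.34 among KO livers and -1.45 among WT livers (limma, adjusted p = 4.58e-10 and 3.37e-10), and Sucnr1 was lower, at -0.84 and -1.10 (limma, adjusted p = 0.00671 and 0.000936). Among KO livers these were all that passed of the 19, where 4.85% of all probe sets passed. Among WT livers, where 4.25% did, P2ry4, a receptor for UTP, passed too at 0.59 (limma, adjusted p = 0.0167), but not without male WT replicate 6 (0.0714). P2ry4 falls below the filter on dim probe sets.

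The genes whose pattern was most like that of P2ry13 over all 23 arrays were Mme, a membrane peptidase (Pearson r = 0.94), Mccc1, a carboxylase of leucine breakdown (0.82), Aadac (0.82), Acad9, a mitochondrial acyl-CoA dehydrogenase (0.82), and Scnm1, a splicing factor (0.78). All of them lie on chromosome 3, and 99% of the other 24477 named probe sets had an r of at most 0.50. Each has a lower mean in both KO groups than in the WT group of the same sex. Group means were not removed over the 23 arrays, so r there also carries the KO to WT difference of P2ry13. Mme ranged from 3.95 to 4.36 in female KO, against 7.70 to 8.33 in female WT, and from 2.79 to 3.52 in male KO, against 6.68 to 7.26 in male WT, without overlap. Its male KO values lay among the levels that Y-linked genes had in females. Over the 11 WT arrays with the mean of each sex removed, the most alike were Rtca, an RNA cyclase (0.94), Tarbp2, a partner of Dicer (0.94), Lipk, a lipase family gene (0.92), Bdp1, a subunit of the RNA polymerase III factor TFIIIB (0.91), and Prrg2, a membrane protein (0.91). Lipk, with group means from 2.89 to 3.04, and Bdp1, from 3.43 to 3.59, read as low as Y-linked genes do in females. A level of these genes could not be told from background. No gene was among the most alike in both sets of arrays. These correlations describe arrays that share their normalization, and with so few WT arrays 1% of the named probe sets had an r above 0.75.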

How the data were processed

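Per the labels' protocols, biotin-labelled cRNA was made from liver RNA, and per the submitters' processing notes the authors made the values with RMA. The deposited values are linear intensity per probe set, with no version, array description or settings given in the sources used here. They were converted to log2 with no further scaling. Groups and replicate numbers came from the sample titles. Names come from the platform annotation, in which 24478 had 1 symbol, 65 had several and 13842 are unnamed here. With limma 3.58.1 in R 4.3.3, all 23 arrays entered 1 fit of 4 group means (lmFit, then eBayes; residual degrees of freedom 19, prior 7.61), and the procedure was tested on simulated data. Errors of differences are standard errors, and intervals are 95%, from the moderated spread. The number of arrays limits the precision.

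The members and lists were chosen with earlier results of these data known. Members are named whatever their result. Of each list the genes that pass are named, or else up to 3 with the smallest p, by the brightest probe set of a gene, and some genes that the rule would name are left unprinted. Likeness to P2ry13 names 5 genes with the highest Pearson r. As alternatives, each array was left out in turn, dim probe sets were filtered out, arrays were quantile normalized or set to equal medians, the variance was fitted robustly with a trend on intensity, the replicate number was added as a block, only the compared groups were fitted, the design text's plain test was run, and probe sets of the same gene were averaged. The sex difference averaged over genotypes was added after the data were seen. The plots were made in Python 3.11.15 with matplotlib 3.10.9.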

Additional observations from a re-analysis of the deposited data

How the results depend on the processing

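P2ry13 kept its direction and its call in both sexes under every alternative run, at -1.17 to -1.09 in females and -0.85 to -0.71 in males with single arrays left out. P2ry12 and Gpr171 fall below the filter on dim probe sets and have no value there. By the design text's rule, a plain one-way analysis of variance with a change over 20%, 1 of 5 members passed, P2ry13, and the same 1 after Benjamini-Hochberg adjustment. The count of passing probe sets in males was 12, and 9 to 21 with single arrays left out, the 21 without male WT replicate 6. In females it was 21, 9 higher and 12 lower, and 16 to 29 with single arrays left out; with equal array medians 11 were higher and 9 lower. Values near 0 changed sign. Gpr171 in females became 0.02 with quantile normalization and 0.02 with equal array medians, and lay at -0.05 to 0.05 with single arrays left out. Between KO females and KO males it lay at -0.0089 to 0.08. Med14, a core Mediator gene, lay at -0.04 to 0.21 in males. P2ry12 averaged over the sexes lay at -0.03 to 0.05, and the difference of the KO effects of P2ry1 at -0.16 to 0.09. None of these passed in limma, and the cause was not tested.

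The replicate numbers gave no sign of pairing KO with WT arrays within a sex. The deviations of same-numbered KO and WT arrays correlated at -0.122 to 0.154, and 1 of 6 female and 0 of 5 male KO arrays correlated best with their own number. Female and male arrays of the same number were not compared, and a shared batch was not tested. With the replicate number as a block, 18 probe sets passed in females, 13 in males and 27 in their average, and 4 passed for the female minus male effect. P2ry12 averaged over the sexes was then -0.00077 and the difference of the KO effects of P2ry1 0.02, both reversed and not passing. The averaged sex difference of P2ry14 was 0.25 under the block and did not pass (limma, adjusted p = 0.0503).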
